A study of Mus musculus with 22 samples.

Results

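The comparison covered 5 mouse mammary tumour lines carrying a Myc transgene, of 22 mammary cell lines in the series: 2 lines with Myc and VEGF (MVT1 and MVT2) and 3 lines with Myc alone (6DT1, cMyc and Myc83). They were chosen by their titles, and Myc83 was also placed relative to the other 4. MVT1 and MVT2 came from mammary tumours of bitransgenic MMTV-cMyc;MMTV-VEGF mice, and 6DT1, cMyc and Myc83 from mammary tumours of MMTV-cMyc mice. The MMTV promoter, from mouse mammary tumour virus, drives both transgenes mainly in mammary epithelium, and all 5 lines carry Myc. MVT1 and MVT2 grew in high-glucose DMEM with FBS, glutamine and non-essential amino acids, and the 3 lines with Myc alone grew in low-glucose DMEM with FCS, so the second transgene and the medium cannot be told apart. Each line had 1 exon array of RNA from growing cultures, and the labels give no strain, mouse age or donor animal for any line. The replicates are therefore separate lines, and every p-value measures the spread between lines and arrays together. Values are the deposited array values, taken as log2, so a difference of 1 is a 2-fold change.

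Myc is a transcription factor that pairs with Max and drives ribosome production, metabolism and cell division. Sustained Myc activity also engages the p53 and ARF tumour suppressors. VEGF is a secreted growth factor whose receptors, Flt1 and Kdr, sit mainly on endothelial cells, so in a tumour its known targets are vessels more than the tumour cells that make it. These were cultured lines without vessels, and action of VEGF on the tumour cells themselves was not tested.

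The 5 arrays had medians between 6.85 and 6.97 and SDs of their values between 1.94 and 2.05. In limma, 0 of 16755 probe sets (0.0%) differed between Myc with VEGF and Myc alone at an adjusted p of 0.05, and the adjusted p of every gene named here was 1.00. At an unadjusted p of 0.05, 484 probe sets (2.89%) were picked, against 838 expected from chance if no probe set differed. The fit had 5.81 degrees of freedom. A single value tested by exact permutation has 10 ways to split 5 lines, so its smallest one-sided p is 0.1. In data simulated with this design, the fit recovered 13 of 50 changes of 1 log2 unit and 38 of 50 changes of 2 log2 units. The simulated noise was normal and independent between probe sets, unlike in these arrays, so these rates need not hold here. The absence of calls does not show that the groups were alike. All group differences below are therefore differences in level that missed the test, given with their values.

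The 5 lines did not sort by the second transgene. Over all tested probe sets the closest pair was MVT1 and 6DT1, a line with Myc and VEGF and a line with Myc alone, with a root mean square difference of 0.329 log2 units. Only 180 probe sets differed by 1 log2 unit or more between them. MVT1 and MVT2, which share both transgenes, lay 0.401 log2 units apart with 339 such probe sets, farther than MVT2 lay from 6DT1 (0.391). The line cMyc stood at a similar distance from MVT1 (0.416), 6DT1 (0.418) and MVT2 (0.420). Myc83 was the most distant line in every pair, at 0.583 from cMyc, 0.605 from MVT2, 0.633 from MVT1 and 0.643 from 6DT1, with 1026 to 1320 probe sets past 1 log2 unit. The label of cMyc calls that line similar to Myc83, and cMyc was the nearest of the 4 to Myc83, although cMyc lay closer to MVT1, MVT2 and 6DT1 than to Myc83. The difference between the groups held 21.0% of the total sum of squares over the 5 lines, while Myc83 alone held 41.6% of it. The shares overlap, as Myc83 enters both, and an arbitrary split of the 5 lines would also hold a share. The first principal component, with 53.7% of the variance, set Myc83 apart from the other 4 lines, and the second, with 18.7%, set cMyc apart.

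**Figure D1:**
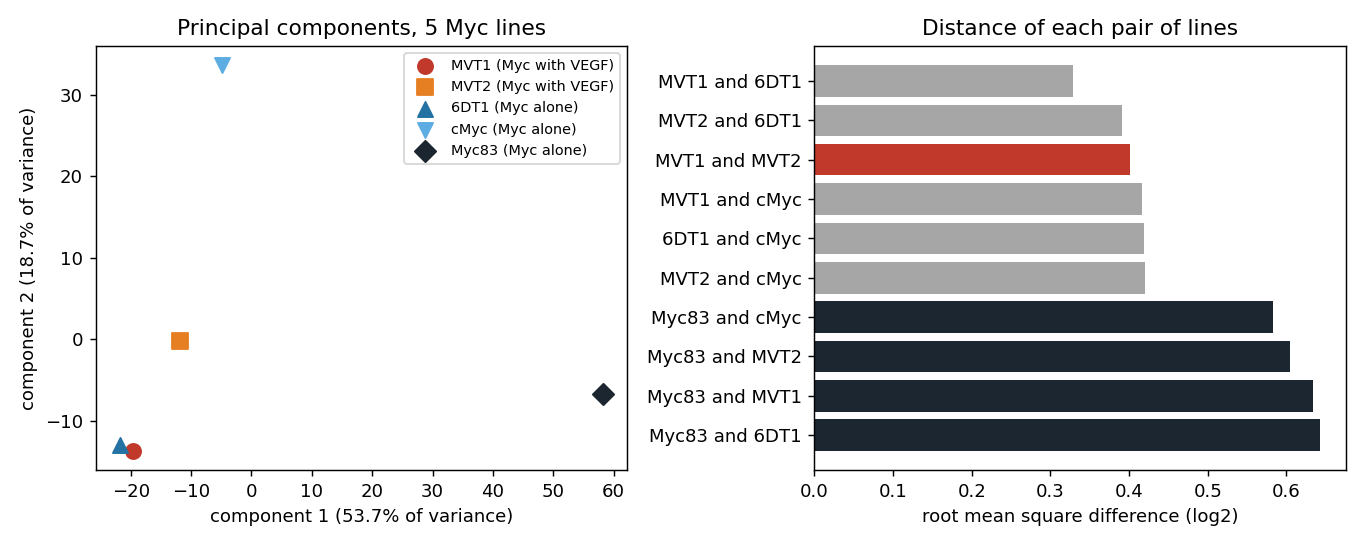
Left, the first and second principal components of the 5 lines (unitless scores); right, bars give the root mean square difference in log2 units between each pair of lines, with pairs that include Myc83 in black and the pair of Myc with VEGF lines in red. Each point or bar rests on 1 array per line. MVT1 and 6DT1 sit together and are the closest pair at 0.329, and the 4 pairs with Myc83 are the longest bars at 0.583 to 0.643.

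Set within the whole series, the Myc lines kept this order. With each probe set centred on its mean over the 22 lines, MVT1 and 6DT1 correlated at r = 0.66, MVT2 and 6DT1 at 0.50 and MVT1 and MVT2 at 0.48. The cMyc line correlated with those 3 at 0.37 to 0.40, and 6DT1 at 0.42 with p1522, a line lacking p53. Myc83 correlated with the 4 at -0.07 to -0.19, and its highest correlations were with M6C (0.24) and M6 (0.16), lines driven by the SV40 T antigen, and DB7 (0.16), driven by polyoma middle T. These r are across probe sets of 1 array per line and describe the arrays.

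The RNA of the transgenes was read first. Vegfa, the main vessel growth factor of the family, read 8.90 in MVT1 and 9.30 in MVT2, against 8.48 in 6DT1, 9.51 in cMyc and 9.05 in Myc83. The groups overlapped, with cMyc the highest line and 6DT1 the lowest, and the difference of 0.08 log2 units had a 95% interval from -0.71 to 0.88. The labels do not say which VEGF gene the transgene holds, and no source says where the probes lie relative to it, so Vegfa does not test the labels. Myc read 11.21 and 10.99 in MVT1 and MVT2, against 11.53, 11.94 and 11.81 in 6DT1, cMyc and Myc83. Both lines with VEGF lay below all 3 lines with Myc alone, by 0.66 log2 units on average (SE 0.18), and the same caveat on probe position holds. All 5 values lay above the array medians, and the array's range ended at 13.7. The 17 lines without a Myc transgene spanned 9.16 to 11.60 for Myc. That range takes in MVT1, MVT2 and 6DT1, while cMyc and Myc83 lay above it.

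Of the VEGF ligands and receptors, 8 of 11 listed symbols were measured, and 5 exceeded the array median. The median difference of the 8 was 0.06 log2 units, against 0.02 over all 14860 genes. Vegfd, a ligand known for its action on lymphatic vessels, was the 1 member whose groups did not overlap. It read 8.11 in MVT1 and 8.60 in MVT2, against 7.44 in 6DT1, 7.12 in cMyc and 7.47 in Myc83, a difference of 1.01 log2 units (SE 0.21). Both lines with VEGF were higher, but over all genes 8.84% had both MVT1 and MVT2 above the 3 lines with Myc alone. The 5 other engineered lines grown in high glucose (M6, M6C, DB7, 780 and p1522) spanned 5.70 to 8.76 for Vegfd, a range that takes in all 5 Myc lines. Vegfb, which binds Flt1, read 9.92 and 10.09 against 10.10, 10.03 and 9.75, and Vegfc, another lymphatic ligand, lay between 5.60 and 6.97 in the 5 lines.

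The receptors did not separate the groups either. Flt1 read 8.35 and 7.87 in MVT1 and MVT2, against 8.50, 7.91 and 8.47 in 6DT1, cMyc and Myc83. The co-receptor Nrp1 read 8.47 and 7.78, against 8.67, 7.27 and 8.34. Kdr, the main signalling receptor of endothelium, lay between 4.77 and 4.96 in all 5 lines, below every array median. Of 29 further secreted or surface regulators of vessels, 2 lay higher without overlap (Pdgfa and Plaur) and 3 lower (Jag1, Angpt1 and Adm), shares near the 8.84% and 7.22% of all genes. Plau, the urokinase protease, had the largest difference among those above the array median. It read 10.92 in MVT1 and 9.81 in MVT2, against 10.49 in 6DT1, 8.53 in cMyc and 7.48 in Myc83, so 6DT1 lay between the lines with VEGF.

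**Figure D2:**
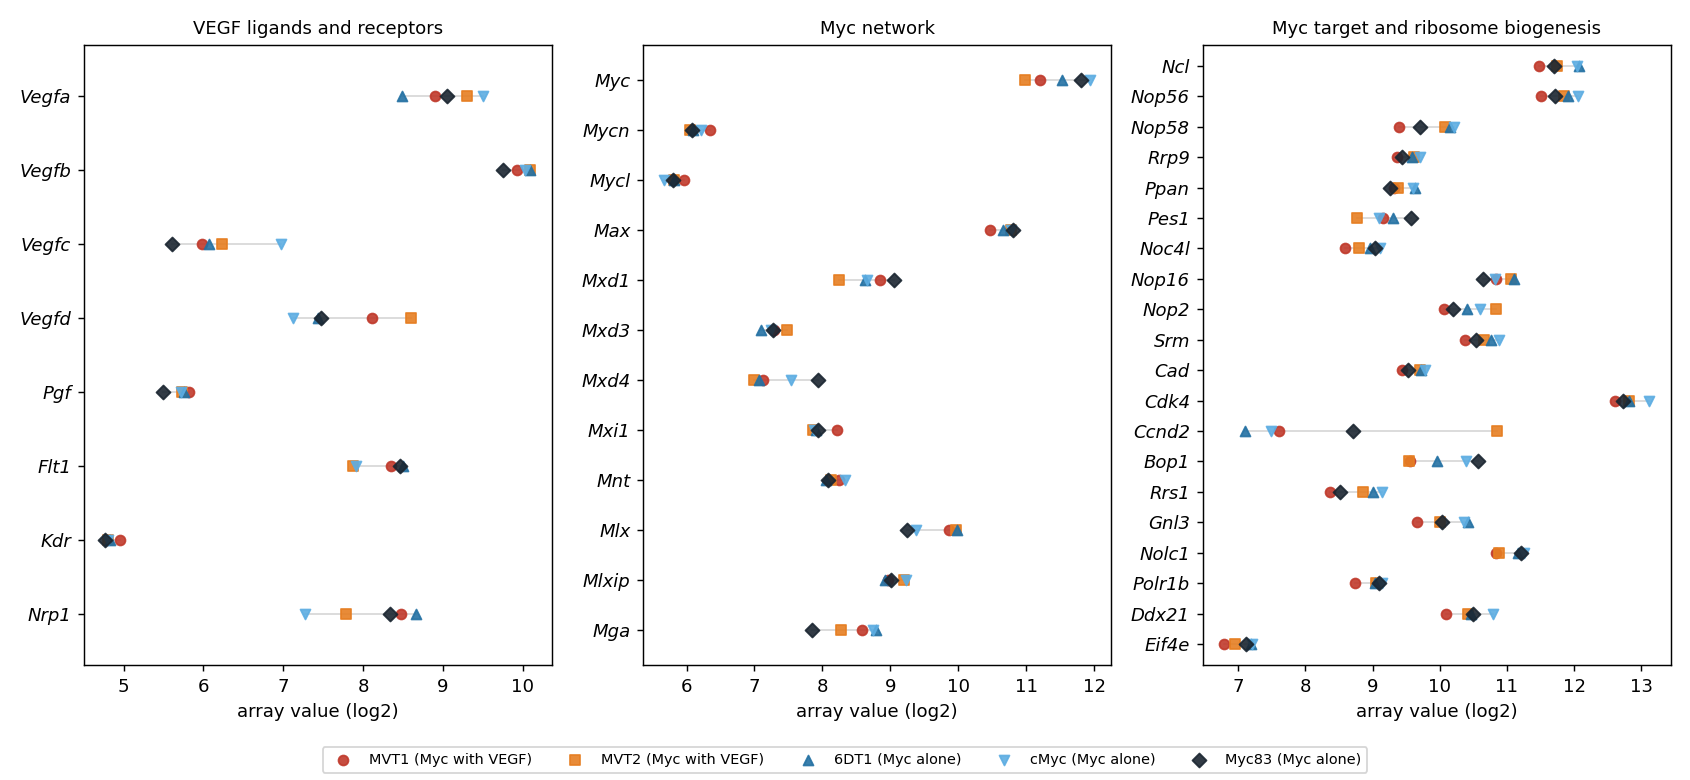
Array value in log2 units (horizontal axis) of each measured VEGF ligand or receptor, Myc network gene and Myc target in the 5 lines, with 1 symbol per line and a grey bar over the range. Vegfd sits higher in MVT1 and MVT2 (8.11 and 8.60) than in the lines with Myc alone, Myc sits lower (11.21 and 10.99), and Ccnd2 is high in MVT2 alone (10.86).

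In the Myc network, 12 of 13 listed symbols were measured. Apart from Myc itself, Mxd3 was the only member without overlap, at 7.29 and 7.48 in MVT1 and MVT2, against 7.09, 7.24 and 7.27 in 6DT1, cMyc and Myc83. Over all genes, 8.84% lay higher and 7.22% lower without overlap. Max, the partner of Myc, lay between 10.48 and 10.81 in the 5 lines. Of the growth genes that Myc is known to drive, 20 were measured and 17 were lower in Myc with VEGF, with a median difference of -0.25 log2 units, while 6819 of all 14860 genes were lower. Both MVT1 and MVT2 lay below all 3 lines with Myc alone at 6 of the 20, against 7.22% of all genes. These were the ribosome assembly genes Bop1, Gnl3, Nolc1, Noc4l and Ddx21, and Eif4e, the cap-binding translation factor. Bop1 read 9.56 and 9.54, against 9.97, 10.39 and 10.57, a difference of -0.76 log2 units (SE 0.21). Gnl3, a nucleolar GTPase, read 9.66 and 10.01, against 10.43, 10.37 and 10.03. The mean level of the 20 genes was 9.69 in MVT1 and 10.10 in MVT2, against 10.04, 10.14 and 9.99 in 6DT1, cMyc and Myc83. By this mean MVT1 was the low line and MVT2 lay among the lines with Myc alone. The mean includes Ccnd2, which was far higher in MVT2 than in any other of these lines. It therefore does not show where MVT2 lay at the other members. Without Myc83, both lines with VEGF lay below 6DT1 and cMyc at 14 of the 20, against 15.0% of all genes. Ccnd2, encoding cyclin D2, read 10.86 in MVT2, while MVT1 at 7.60 lay with 6DT1 (7.10) and cMyc (7.49), and Myc83 read 8.70.

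The genes with the smallest p-values were chosen among those whose groups did not overlap, so their separation is a description, and none passed adjustment. Among the genes lower in Myc with VEGF, Rnf130, a RING-finger ubiquitin ligase, had the smallest p. It read 6.58 in MVT1 and 6.29 in MVT2, below the array medians, against 8.58 in 6DT1, 9.43 in cMyc and 8.70 in Myc83. The difference was -2.47 log2 units (SE 0.29). In the 5 engineered lines with other drivers and high glucose, Rnf130 lay between 7.89 and 10.15, above both MVT1 and MVT2. Id2, an inhibitor of basic helix-loop-helix transcription factors, read 8.37 and 8.60, against 10.38, 10.16 and 10.83, a difference of -1.97 log2 units (SE 0.23). The same 5 high-glucose lines spanned 8.07 to 11.91 for Id2, which takes in both groups. Ddr2, a collagen receptor kinase, had the largest difference of the named genes, -3.68 log2 units (SE 0.67). It read 7.68 in MVT1 and 5.55 in MVT2, the latter below the array medians, against 9.60, 10.69 and 10.60. The 2 lines with VEGF were themselves more than 2 log2 units apart. The 5 high-glucose lines spanned 5.53 to 9.29 for Ddr2, so they reached the level of MVT1 and MVT2 and all lay below the 3 lines with Myc alone.

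The other genes lower in Myc with VEGF had varied known roles and smaller differences. Usp1, which removes ubiquitin from repair proteins, read 6.83 and 6.58, below the array medians, against 7.97, 7.78 and 7.47. The 5 high-glucose lines lay between 7.84 and 8.82 for Usp1, above both MVT lines. Dtl, a ubiquitin ligase subunit that limits replication licensing, read 9.51 and 9.42, against 10.40, 10.05 and 10.18. Tfrc, the transferrin receptor, read 9.37 and 9.62, against 10.15, 10.30 and 10.39, and high-glucose lines with other drivers spanned 9.75 to 11.03. Plcg2, a phospholipase of signalling, was lower by 1.30 log2 units (SE 0.24), at 8.19 and 7.63 against 9.07, 9.04 and 9.52. In line 780, whose medium the labels give as that of MVT1 and MVT2, Rnf130 read 8.98, Id2 10.62, Ddr2 9.29, Usp1 8.82 and Tfrc 10.59. It was the highest of the 5 high-glucose lines for Ddr2 and Usp1. The homeobox gene Otx1, the peroxisomal carrier Slc25a17, the chromatin remodelling subunit Phf10, the transcription factor Nfib and the mitochondrial GTPase Noa1 completed the list, with differences of -0.56 to -0.70 log2 units. Over the 12 genes lower in Myc with VEGF, the range of the 5 high-glucose lines reached the level of MVT1 or MVT2 at 3 (Id2, Ddr2 and Plcg2), and at 1 of these, Ddr2, it lay wholly below the lines with Myc alone.

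Dgka, a diacylglycerol kinase, had the smallest p among the genes higher in Myc with VEGF. It read 9.71 in MVT1 and 9.87 in MVT2, against 8.72, 8.94 and 8.66 in 6DT1, cMyc and Myc83, a difference of 1.02 log2 units (SE 0.15). Ank3, the membrane scaffold ankyrin-G, read 7.52 and 8.52, against 6.18, 6.01 and 6.18, the largest of these differences at 1.89 log2 units (SE 0.30). Mlph, an adaptor of melanosome transport, read 7.63 and 7.57, against 6.63, 6.13 and 6.06, and the 5 high-glucose lines reached 7.26. For Ank3, Mlph and Cd300lb the lines with Myc alone lay below the array medians, where the size of a difference is uncertain. For Dgka the 5 high-glucose lines spanned 7.71 to 9.99, which takes in all 5 Myc lines, and for Ank3 they spanned 6.78 to 8.12, above every line with Myc alone. Line 780 read 7.71 for Dgka and 5.87 for Mlph, the lowest of the 5 in both, 7.44 for Vegfd and 7.24 for Ank3. E2f6, a repressor of the E2F family, read 9.06 and 9.40, against 8.41, 8.23 and 8.57. Glipr2, Cd300lb, Snx30, Plekho2, the kinase Tec, the electron carrier Cyb5a and the polarity scaffold Dlg5 completed the list with Vegfd, at differences of 0.67 to 1.31 log2 units. Over the 12 genes higher in Myc with VEGF, the range of the 5 high-glucose lines reached the level of MVT1 or MVT2 at 6 (Dgka, Ank3, Vegfd, E2f6, Tec and Plekho2), and at 1 of these, Ank3, it lay wholly above the lines with Myc alone. Over all genes, 1.62% were higher and 1.24% lower at an unadjusted p of 0.05.

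**Figure D3:**
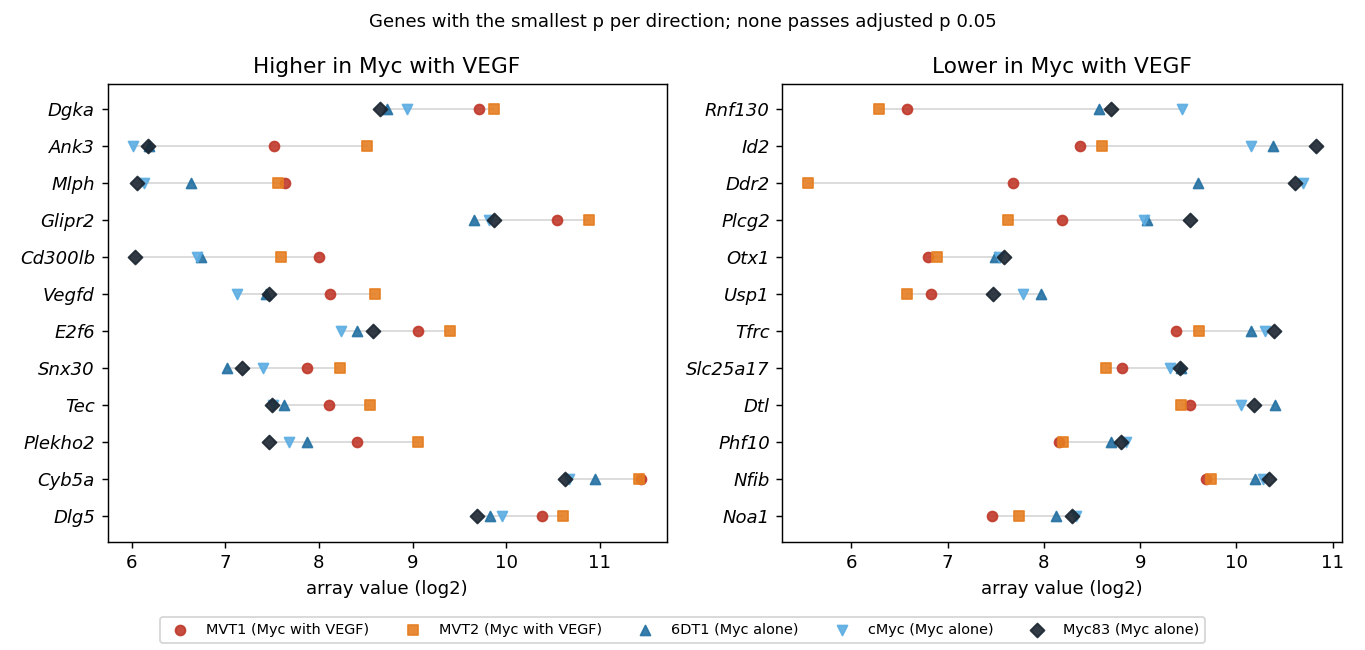
Array value in log2 units (horizontal axis) of the 12 genes with the smallest limma p in each direction, with 1 symbol per line and a grey bar over the range. The groups do not overlap at any of these genes because the choice required it, and Ddr2 shows the widest spread within Myc with VEGF (7.68 and 5.55).

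The media differed in sugar, so genes known to answer glucose were read as a group. The 11 measured members had a median difference of 0.02 log2 units, with 1 lying higher without overlap (Pklr) and 1 lower (Elovl6), where 8.84% of all genes lay higher and 7.22% lower in this way. Txnip, a gene induced by glucose through the MondoA and ChREBP factors, read 9.50 and 8.81 in MVT1 and MVT2, against 9.50, 9.81 and 8.10 in 6DT1, cMyc and Myc83. The groups overlapped for Txnip. Of 25 measured genes of amino acid synthesis and the ATF4 response, 0 lay higher without overlap and 2 lower (Shmt2 and Mthfd2, of mitochondrial one-carbon metabolism), with a median difference of -0.07 log2 units. Asns, asparagine synthetase, read 10.96 and 11.47, against 11.15, 11.14 and 11.48. Of 18 hypoxia and glycolysis genes, 3 lay higher without overlap (Hk1, Tpi1 and Egln3) and 0 lower, beside the same shares of all genes. The low value of Egln3, an oxygen-sensing hydroxylase, was in Myc83. It read 10.68 and 11.05, against 10.60, 10.47 and 8.53.

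Cholesterol synthesis genes lay lower in Myc with VEGF at all 13 measured members, with a median difference of -0.35 log2 units, while 6819 of all 14860 genes were lower. At 5 of the 13 both MVT1 and MVT2 lay below all 3 lines with Myc alone, against 7.22% of all genes. Hmgcs1, an early enzyme of the pathway, read 8.26 and 8.47, against 8.73, 9.13 and 9.10, and Sqle, squalene epoxidase, read 9.33 and 9.20, against 9.54, 10.36 and 9.82. The other 3 were Msmo1, Fdft1 and Sc5d. The largest difference was at Cyp51, lanosterol demethylase, which read 7.09 in MVT1 and 8.10 in MVT2, against 7.97, 8.71 and 9.31. The mean level of the list was 8.32 in MVT1 and 8.68 in MVT2, against 8.61 in 6DT1, 9.04 in cMyc and 9.16 in Myc83, so 6DT1 lay between the lines with VEGF. Without Myc83 the median difference was -0.23 log2 units. The 5 high-glucose lines spanned 7.78 to 10.60 for Hmgcs1, 9.16 to 11.14 for Sqle and 5.30 to 10.498 for Cyp51, ranges that take in all 5 Myc lines. The part of the medium and serum in these levels was not tested.

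Cell cycle genes mostly read slightly lower in Myc with VEGF. Of 22 measured, 20 were lower, with a median difference of -0.16 log2 units, while 6819 of all 14860 genes were lower. The mean level was 9.83 in MVT1 and 9.87 in MVT2, against 10.10, 9.98 and 10.08 in 6DT1, cMyc and Myc83. The 5 that lay lower without overlap, against 7.22% of all genes, were the cyclins Ccna2 and Ccne1, the replication licensing genes Mcm2 and Mcm5, and E2f1. Mcm5 read 10.51 and 10.66, against 10.80, 11.06 and 11.34. Ccnd1, encoding cyclin D1, was the 1 member that lay higher without overlap, against 8.84% of all genes, at 12.47 and 12.64 against 12.25, 12.30 and 12.26.

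Of 20 measured genes of the p53 response and the INK4/ARF locus, 13 were higher and 7 lower in Myc with VEGF, with a median difference of 0.31 log2 units, while 8041 of all 14860 genes were higher. Both MVT1 and MVT2 lay above all 3 lines with Myc alone at 5 of the 20, against 8.84% of all genes, and below them at 1, against 7.22%. Cdkn1a, the cell cycle inhibitor p21, read 9.69 and 10.01, against 9.31, 7.46 and 9.16, with the low value in cMyc. Mdm2, the ubiquitin ligase that degrades p53, read 9.76 and 10.16, against 9.59, 9.01 and 9.33. Eda2r, a death-domain receptor, read 6.94 and 7.62, against 6.46, 5.41 and 5.71, a difference of 1.42 log2 units (SE 0.36). The lines with Myc alone lay below the array medians for Eda2r, where the size of a difference is uncertain. Polk, a lesion-bypass polymerase, and Tnfrsf10b, a TRAIL receptor, were the other 2. Without Myc83, 9 of the 20 lay above 6DT1 and cMyc, against 13.6% of all genes. In each of the 5 genes 6DT1 was the line with Myc alone nearest to the lines with VEGF. Sesn1 was the member lower without overlap, at 7.38 and 7.27 against 7.48, 8.10 and 8.03. Cdkn2a, which encodes p16 and ARF, read 7.98 and 7.86, against 7.33, 9.36 and 9.04, with 6DT1 the lowest of the 5 and cMyc the highest.

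Epithelial genes gave the largest median difference of any list, -0.75 log2 units over 24 measured members, and it came with 1 line. Of these, 21 members were lower in Myc with VEGF, while 6819 of all 14860 genes were lower. Yet 0 of the 24 had groups that did not overlap, where 8.84% of all genes lay higher and 7.22% lower in this way. Without Myc83 the median difference was -0.02 log2 units. Cdh1, the epithelial cadherin, read 6.70 in MVT1 and 6.58 in MVT2, against 6.55 in 6DT1, 6.73 in cMyc and 10.84 in Myc83. Krt14, a basal keratin, read 6.41 and 6.34, against 6.09, 6.17 and 11.19. In both genes Myc83 was the only high line. In bulk samples, fewer cells of a type and less RNA per cell cannot be told apart. The genes with the smallest p behaved otherwise, as the fit favours genes with a small spread among the lines with Myc alone. Leaving out Myc83 moved Rnf130 to -2.57, Id2 to -1.78 and Dgka to 0.96 log2 units.

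**Figure D4:**
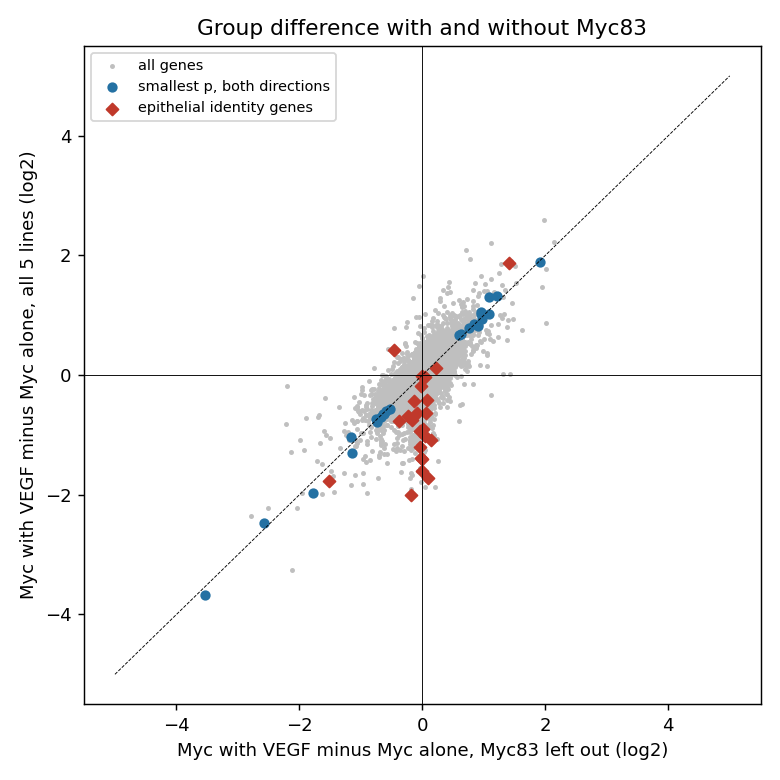
Each point is a gene, with the difference Myc with VEGF minus Myc alone in log2 units over all 5 lines (vertical axis) and without Myc83 (horizontal axis), and the dashed line marks equal values. Most epithelial genes (red) fall near 0 without Myc83 while reaching as low as -2.00 with it, whereas the genes with the smallest p (blue) lie along the line.

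Acta2 separated the groups with Myc83 at the far end. This smooth muscle actin, a gene of myoepithelial cells, read 6.58 in MVT1 and 6.07 in MVT2, against 7.90 in 6DT1, 9.00 in cMyc and 11.82 in Myc83. The difference was -3.25 log2 units (SE 1.10) and, without Myc83, -2.13 log2 units. Luminal genes had a median difference of -0.05 log2 units over 21 members, with 1 higher without overlap. Mesenchymal genes had 0.06 over 27, with 2 higher and 1 lower, where all genes had 8.84% higher and 7.22% lower. Lcn2, a secreted iron-binding protein on the luminal list, read 7.42 and 5.77, against 7.35, 11.40 and 8.07, with cMyc the high line. Krt19 read 7.23 and 8.81, against 7.53, 5.68 and 5.22.

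Myc83 was then set against the other 4 lines gene by gene, as a description without replicate error. A gene was counted where Myc83 lay at least 1 log2 unit above the highest, or below the lowest, of the other 4, and where Myc83 in the first case, or the lowest of the other 4 in the second, also exceeded every array median. Myc83 was beyond at 305 genes above (2.05%) and 126 below (0.848%). The same count gave 8 genes above (0.0538%) and 8 below (0.0538%) for MVT1, and 19 above (0.128%) and 19 below (0.128%) for MVT2. It gave 7 above (0.0471%) and 10 below (0.0673%) for 6DT1, and 23 above (0.155%) and 18 below (0.121%) for cMyc.

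Among the 12 genes farthest above in Myc83, 3 stood on the epithelial list and Krt14 on the basal list. Epcam, an epithelial adhesion molecule, read 11.36 in Myc83, against 6.13, 5.29, 5.81 and 5.98 in MVT1, MVT2, 6DT1 and cMyc. Rab25, an epithelial GTPase of vesicle recycling, read 10.89 against 5.67, 5.39, 5.34 and 5.53. Esrp1, an epithelial splicing regulator, read 10.14 against 5.47, 5.24, 5.34 and 5.40. In each case the other 4 lines lay below the array medians. Dsg3, a desmosomal cadherin, read 10.24 against 4.44 to 4.64, Krt79 read 11.62 against 5.84 to 6.17, and the protease inhibitor Serpinb5 read 10.02 against 4.45 to 4.92. Mal2, Tmem54, Nipal2 and Krt14 also stood among the 12 largest gaps. The other 2 were genes known from cartilage: Cnmd, chondromodulin, read 11.14 against 4.85 to 5.20, and Acan, the proteoglycan aggrecan, read 11.24 against 5.86 to 6.01. For Acan the highest of the 17 lines without a Myc transgene was 2855 at 9.41, and for Cnmd it was DB7 at 9.85, so Myc83 was the highest of the 22 lines for both.

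In Myc83, 14 of the 24 measured epithelial genes lay at least 1 log2 unit above the other 4 lines, against 2.05% of all genes. Myc83 lay that far below at 1 of the 24, against 0.848%. The other 9 were closer or at most at the array median. Spint1 and Spint2, inhibitors of the membrane protease encoded by St14, read 9.60 and 10.43 in Myc83, while the other 4 lines lay between 6.04 and 6.61 for both, and St14 itself read 10.12 against 6.42 to 6.76. Ehf, an epithelial ETS factor, read 8.77 against 5.14 to 5.29, and Grhl2, a factor that maintains Cdh1, read 7.07 against 4.95 to 5.19. The exception was Krt18, a simple epithelial keratin, which read 8.12 in Myc83, against 10.44, 10.19, 10.61 and 10.92 in MVT1, MVT2, 6DT1 and cMyc. The 4 other lines, labelled as mammary tumour lines, thus had Krt18 above the array median and Cdh1 and Epcam below it. By mean centred level of the epithelial list Myc83 ranked 7 of 22 lines, against 14 for MVT1, 18 for MVT2, 16 for 6DT1 and 15 for cMyc.

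**Figure D5:**
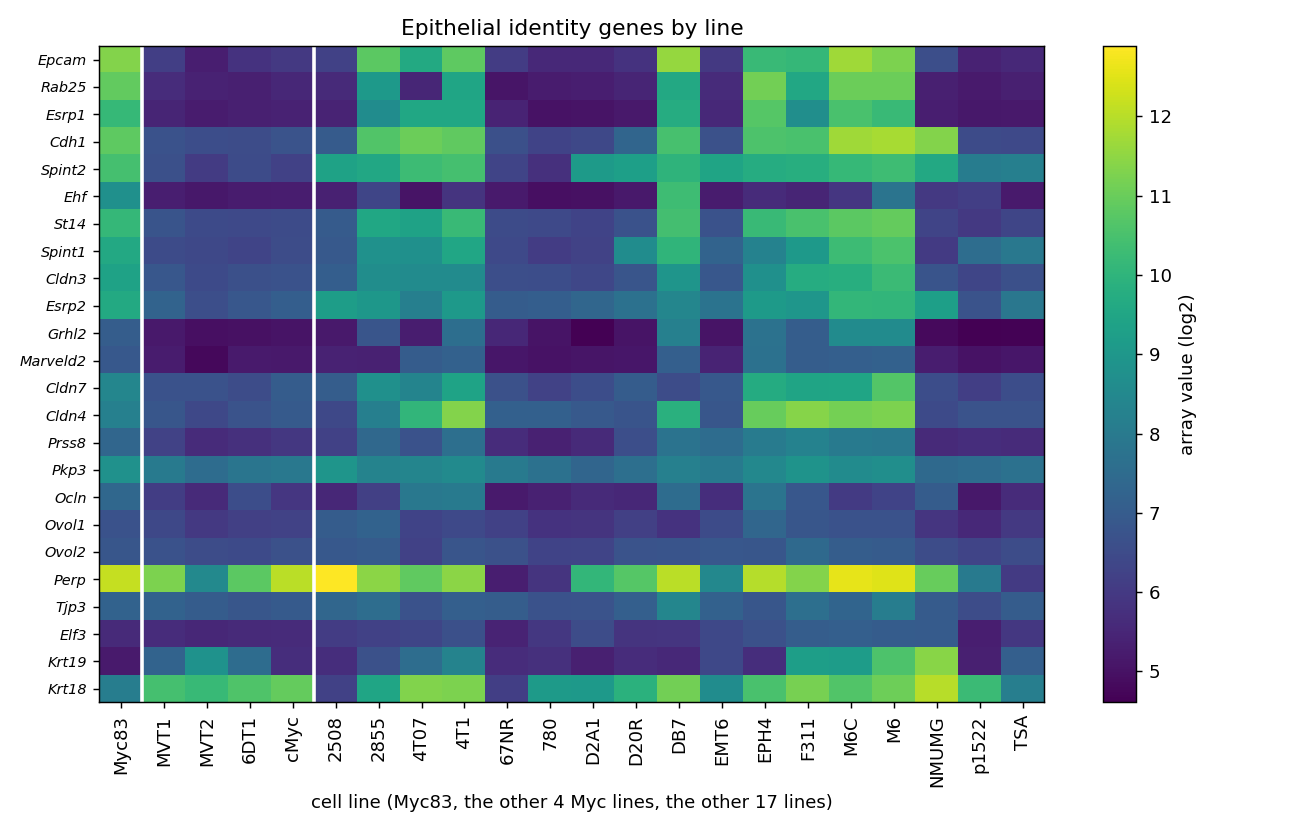
Array value in log2 units (colour) of the 24 measured epithelial genes (rows, by the gap of Myc83 to the other Myc lines) in Myc83, the other 4 Myc lines and the other 17 lines (columns), 1 array per line. Myc83 shares high Cdh1, Epcam and Rab25 with lines such as M6, M6C and DB7, and the other 4 Myc lines are low for these and higher for Krt18.

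The promoters of 4 genes of the epithelial list are shown because these genes were high or low together by line and because Zeb and Snail factors, known repressors of epithelial genes, bind the letters CAGGTG, whose other strand reads CACCTG. Each window is 300 bases, mostly before the gene start, in RefSeq, build GRCm38.p6, printed 5′ to 3′ on the gene's strand with each match in capitals. They lie at chr17:87635729-87636028 on the plus strand for Epcam, chr3:88548230-88548529 on the minus strand for Rab25, chr7:29281928-29282227 on the minus strand for Spint2 and chr2:119237110-119237409 on the plus strand for Spint1.
Epcam: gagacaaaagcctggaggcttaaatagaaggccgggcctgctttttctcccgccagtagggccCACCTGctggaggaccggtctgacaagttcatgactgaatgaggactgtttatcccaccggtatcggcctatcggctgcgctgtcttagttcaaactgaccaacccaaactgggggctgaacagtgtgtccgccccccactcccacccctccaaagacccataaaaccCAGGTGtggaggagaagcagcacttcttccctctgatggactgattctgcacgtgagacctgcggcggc
Rab25: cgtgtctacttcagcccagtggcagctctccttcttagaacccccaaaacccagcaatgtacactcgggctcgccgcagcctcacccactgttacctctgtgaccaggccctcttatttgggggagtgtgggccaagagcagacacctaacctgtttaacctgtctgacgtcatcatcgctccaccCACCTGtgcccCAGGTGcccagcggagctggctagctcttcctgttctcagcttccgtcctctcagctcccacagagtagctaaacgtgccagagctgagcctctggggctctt
Spint2: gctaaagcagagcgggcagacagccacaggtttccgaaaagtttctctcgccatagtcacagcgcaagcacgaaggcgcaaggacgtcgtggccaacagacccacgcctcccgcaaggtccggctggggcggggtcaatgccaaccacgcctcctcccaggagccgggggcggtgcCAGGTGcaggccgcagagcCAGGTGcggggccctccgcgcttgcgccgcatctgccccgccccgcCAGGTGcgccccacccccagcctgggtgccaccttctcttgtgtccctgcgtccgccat
Spint1: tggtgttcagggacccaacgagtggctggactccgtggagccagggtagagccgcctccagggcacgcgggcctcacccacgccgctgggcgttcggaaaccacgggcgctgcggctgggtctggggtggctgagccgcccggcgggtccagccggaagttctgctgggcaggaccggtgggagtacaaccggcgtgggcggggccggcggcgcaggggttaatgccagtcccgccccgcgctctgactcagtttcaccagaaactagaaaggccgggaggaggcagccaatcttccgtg
Epcam and Rab25 held 2 matches each, Spint2 held 3 and Spint1 held 0, although all 4 genes were high in Myc83. Krt18, far below in Myc83, also held 1 match, and Cldn7, far above, held 0. Of the 14 epithelial genes far above in Myc83, 7 had a promoter in the table and 5 held a match, as did 12 of 16 promoters of the whole list. The share was 27.8% of 212 promoters among all genes far above in Myc83, 17.2% of 99 among genes far below, and 18.7% of 11894 over all measured genes. A match is a description of letters and was not tested as a site. Of the factors, Zeb1 read 8.25 in Myc83, against 8.61, 8.20, 8.26 and 8.23 in MVT1, MVT2, 6DT1 and cMyc. Zeb2 read 8.45 in Myc83, against 8.24, 9.59, 8.74 and 9.39, and Snai1 read 7.88, against 8.06, 8.34, 7.41 and 8.17, so Myc83 lay within the range of the other 4 lines for these 3 genes. Snai2 was high in Myc83, at 10.42 against 6.90 to 7.50. Of the 17 lines without a Myc transgene, 13 lay above Myc83 for Zeb2 and 12 for Snai1, against 2 each for Zeb1 and Snai2. For the Myc letters CACGTG, 1 of 10 promoters of the named genes higher in Myc with VEGF and 1 of 8 of those lower held a match, against 8.87% over all measured genes.

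Part of the mesenchymal list was high in Myc83. Of 27 measured genes, 6 lay at least 1 log2 unit above the other 4 and 0 below, against 2.05% and 0.848% of all genes. The median of Myc83 minus the mean of the other 4 was -0.08 log2 units, against -0.09 over all genes. Myc83 was the lowest of the 5 lines at Prrx1, Loxl2, Fap, Lum and Col5a2, but it lay below the array medians at each. Prrx1 read 5.54 against 5.76 to 7.22. The gaps to the next line at Loxl2, Fap, Lum and Col5a2 were only -0.04 to -0.17 log2 units. Postn, the matrix protein periostin, read 9.74 in Myc83 against 4.88 to 5.45, and Tnc, tenascin C, read 10.09 against 6.66 to 7.21. Pdgfrb, a growth factor receptor of fibroblasts and pericytes, read 9.77 against 7.07, 6.76, 5.92 and 7.77. Cdh2, neural cadherin, read 11.36 in Myc83 and 10.26 in MVT2, while MVT1, 6DT1 and cMyc lay between 6.58 and 7.66. Snai2 and Bgn, a matrix proteoglycan, were the other 2. Vim, the mesenchymal filament vimentin, was high in all 5 lines, at 12.91 in Myc83, against 12.91, 12.91, 13.13 and 13.25 in MVT1, MVT2, 6DT1 and cMyc. By mean centred level Myc83 ranked 4 of 22 for the mesenchymal list, 3 for the basal list and 5 for the luminal list. A line of mixed cells and a line whose cells hold both sets of genes cannot be told apart in these arrays.

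Basal and luminal genes were split. Of 17 measured basal genes, 5 lay at least 1 log2 unit above in Myc83 and 0 below, against 2.05% and 0.848% of all genes. Those above were Krt14, Acta2, Itgb4, Tagln and Cnn1. Krt5 read 6.05 and Trp63 5.62, at the level of the other 4 lines and below the array medians. Itga6, also on the basal list and above the array medians, was lowest in Myc83, at 9.60 against 10.45 to 10.97. On the luminal list, the receptor kinases Kit, Erbb2 and Erbb3 lay above, with Kit at 9.21 in Myc83 against 5.29 to 5.40 and Erbb2 at 10.73 against 8.32 to 8.97. Elf5, a factor of luminal progenitors, read 7.44 against 6.04 to 6.24. Gata3, a luminal factor, read 10.03 in Myc83 against 9.41 to 10.35. Krt18, also on the luminal list, lay below, at 8.12 against 10.19 to 10.92. Myc83 was the lowest of the 5 lines for Krt19, Esr1 and Csn3 too, at levels below the array medians. Of 21 measured luminal genes, 4 were counted above and 1 below, against 2.05% and 0.848% of all genes. The luminal median of Myc83 minus the mean of the other 4 was 0.09 log2 units, against -0.09 over all genes.

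The 12 genes farthest below in Myc83 stood on none of the lists. Gypc, glycophorin C, read 5.70 in Myc83, against 8.70 to 9.47 in the other 4 lines, Apbb1ip, an integrin adaptor, read 5.83 against 8.75 to 9.47, and Adgre5, the adhesion receptor CD97, read 5.81 against 8.68 to 10.48. The widest gap was at Scrn1, secernin, which read 5.50 against 10.09, 10.78, 10.72 and 10.13. Fam111a read 5.11 against 9.48 to 9.93, Adgrg3 6.92 against 10.93 to 11.55 and Cavin3, a caveolar coat protein, 7.98 against 11.09 to 11.30. Hsd17b11, Zfp608, Tnfrsf26 and Arhgap6 were also among them. For Gypc and Scrn1, 16 of the 17 lines without a Myc transgene lay above Myc83.

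Markers of other cell types were read in all 5 lines. Of 13 endothelial markers, 1 exceeded the array median (Eng), and the mean level of the list was 5.98 in MVT1 and 5.80 in MVT2, against 5.77, 5.86 and 5.66 in 6DT1, cMyc and Myc83. Of the 13, 4 lay slightly higher without overlap, against 8.84% of all genes, among them Sox18 at 6.89 and 6.65 against 6.11, 6.38 and 6.13, and Pecam1 at 5.77 and 5.53 against 5.49, 5.45 and 5.52. The defining markers Pecam1 and Cdh5 lay between 5.45 and 5.77 in all 5 lines, below the array medians. Of 11 immune markers, 2 exceeded the median, Cd68 and Cd14, and Ptprc, the common leukocyte antigen, lay between 4.40 and 4.58. Cd68, a lysosomal protein of macrophages, read 10.56 and 10.06, against 8.98, 9.72 and 7.28, with Myc83 the lowest line. Of 6 adipocyte markers, 1 exceeded the median (Plin1).

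Single genes also set MVT1 and MVT2 far apart. Loxl2 and Mmp2, enzymes of matrix cross-linking and matrix breakdown, read 9.85 and 10.61 in MVT2 and 5.63 and 6.95 in MVT1, while the 3 lines with Myc alone lay at 5.36 to 5.79 for Loxl2 and 6.76 to 7.47 for Mmp2. Tmem47, a junction protein, read 11.75 in MVT2 and 6.78 in MVT1, against 5.61 in 6DT1, 8.88 in cMyc and 10.68 in Myc83. In the other direction, Crip1 read 11.34 in MVT1 and 6.53 in MVT2, against 11.81, 9.97 and 10.93, and Aim2, a sensor of cytosolic DNA, read 10.41 and 6.10, against 11.06, 9.84 and 4.41. Srgn, a granule proteoglycan, read 11.85 in MVT1 and 7.27 in MVT2, against 10.36 in 6DT1, 7.52 in cMyc and 7.25 in Myc83. Hspb8, a small heat shock protein, read 9.48 in MVT1 and 5.07 in MVT2, against 9.73, 9.85 and 8.89. Each of these is a difference between single arrays, with no replicate.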

How the data were processed

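RNA of 22 mouse mammary cell lines was measured on exon arrays, 1 array per line. The authors deposited 1 table of values, taken here as log2 from their range, since no header or label states the scale, the background correction or the normalization. The submitters' processing notes name GCOS and mm9. Of 23332 entries, 16755 numbered in the platform annotation were tested, of which 14996 had 1 gene symbol, 1019 several and 740 none. Of those with 1 symbol, 14941 matched the RefSeq table of GRCm38.p6, and each of 14860 genes took its probe set with the highest mean. MVT1 and MVT2 were compared with 6DT1, cMyc and Myc83 by limma 3.58.1 (lmFit and eBayes, R 4.3.3) with Benjamini-Hochberg adjustment at 0.05. Intervals for single genes use the moderated limma SE. The step was tested on simulated data for this comparison over 16755 probe sets, with 2 false calls. Gene lists (21) were described by counts and medians. Named genes were the 12 with the smallest p in each direction among genes without overlap and above the array median, the 3 list members with the largest difference, and the 12 largest gaps of Myc83 in each direction. Other list members and the genes differing between MVT1 and MVT2 were named after their values were seen. The members and lists were chosen with earlier results of these data known. No column belonged to another sample. Python 3.11.15 with numpy 2.4.6, pandas 2.3.3, scipy 1.17.1 and matplotlib 3.10.9 did the rest. The number of arrays limits the precision, and 12 alternatives were tried.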

Additional observations from a re-analysis of the deposited data

How the results depend on the processing

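Limma called 0 probe sets at an adjusted p of 0.05 in the reported fit and in all 12 alternatives, and the smallest adjusted p was 0.238 (without 6DT1), 0.5 (without MVT1), 0.54 (without Myc83) and 0.981 or above in the rest. The count at an unadjusted p of 0.05, 484 as reported, was 265 with all 22 lines in the fit, 777 with every table entry and 929 without 6DT1, and leaving out single lines spanned 343 to 929. Where a line of Myc with VEGF was left out, the lone array was assumed to vary like the others. Of 959 pairs of gene and setting, 940 kept their sign. The 19 opposite signs all came from leaving out 1 line. Settings that kept the same values in the 5 Myc lines, such as the fit of all 22 lines, could not change a difference. Genes chosen for groups without overlap could not change sign when 1 line was left out. The count of 940 is therefore partly fixed in advance and does not measure stability. Without 6DT1, Vegfa was -0.18, Gbp2 0.052 and Eng 0.016 log2 units. Without cMyc, Eng was 0.075 and Nrp1 -0.37. Without Myc83, Slc6a9 was 0.0014, Krt14 0.25 and Birc5 0.074. Without MVT1, Acaca was 0.14, Psmb9 -0.058, Plin1 -0.0035, Kdr -0.0016 and Nrp1 -0.31. Without MVT2, Flt1 was 0.058, Vegfa -0.12, Ccnd2 -0.16, Mmp2 -0.057, Gbp2 0.084 and Eng 0.050. The other end of the range over settings without 1 line was -0.42 for Flt1, 0.33 for Vegfa, 3.10 for Ccnd2, 3.61 for Mmp2, -0.50 for Acaca, -0.80 for Slc6a9, -2.30 for Krt14, -0.84 for Birc5, -0.53 for Gbp2, 0.61 for Psmb9, -0.093 for Eng, 0.21 for Plin1, 0.16 for Kdr and 0.38 for Nrp1. With the dimmest probe sets removed before the fit, list medians moved to 0.16 for hypoxia, 0.13 for cytokines and 0.31 for immune markers, and without Myc83 the basal median was 0.015. Myc83 lay beyond the other lines at 324 probe sets above and 132 below. These fell to 118 and 30 at a gap of 2 log2 units, and a wider gap can only lower them. Centred over 5 lines, Myc83 correlated at -0.52 with MVT1, -0.37 with MVT2, -0.57 with 6DT1 and -0.24 with cMyc. Centred over 22 lines, these were -0.17, -0.097, -0.19 and -0.074. Centring over 5 lines by itself pushes the correlations between them to negative values. The cause of the other shifts was not tested. No paired analysis was possible because the replicate numbers only name separate lines.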

Other observations

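Mtap, which encodes an enzyme of methionine salvage, was singled out after its values were seen. It read 7.29 in MVT1 and 10.75 in MVT2, against 5.19 in 6DT1, 10.74 in cMyc and 10.66 in Myc83. The 17 lines without a Myc transgene lay at 9.76 or above, so 6DT1 and MVT1, the closest pair of Myc lines, were the lowest 2 of the 22. The next genes on chromosome 4 in the RefSeq order are Cdkn2a and Cdkn2b. Cdkn2a read 7.98 in MVT1 and 7.86 in MVT2, against 7.33 in 6DT1, 9.36 in cMyc and 9.04 in Myc83, and Cdkn2b read 6.96 in MVT1 and 6.83 in MVT2, against 6.60 in 6DT1, 8.06 in cMyc and 7.69 in Myc83.

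Some lines stood out at single genes. Lepr, the leptin receptor, read 7.95 in 6DT1 and between 4.11 and 4.31 in the other 4 Myc lines. Nid1, the basement membrane protein nidogen, read 10.67 in cMyc and between 5.85 and 7.28 in the other 4. These genes were picked out after their values were seen, and each rests on 1 array.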
